A study of Mus musculus with 16 samples.

Results

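The genes described here are 34 genes of cardiac muscle: structural proteins of the sarcomere, proteins that move calcium in and out of the sarcoplasmic reticulum, both cardiac natriuretic peptides and 4 transcription factors of the heart. They are 34 of the 54838 gene identifiers counted in RNA sequencing libraries of mouse embryos at stage E10.5 (mid-gestation), and each was matched by its Ensembl identifier. They were chosen because they rose in the heads of embryos that lack Gpr161, so their levels there against wild type are given as a description and are not tested. Gpr161 is a receptor of the primary cilium that restrains Hedgehog signalling, and Fuz is a protein needed to build cilia.

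The study cut each embryo into a Head, the part above the third branchial arches, and a Tail, the part below the forelimbs. Embryos were wild type (WT), Fuz knockout (Fuz KO), Gpr161 knockout (Gpr161 KO) or double knockout of both genes (DKO), which gave 8 groups of 2 libraries from untreated embryos. The labels name no strain or allele. They also do not say if the pair of libraries in a group is from different embryos, and p-values below then rest on a spread that may be technical. By the stated cuts, the level of the heart falls between both parts.

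Sequencing depth ran from 39062489 to 53680317 counts per library. Fuz stood at 0.808 to 1.89 CPM (counts per 1000000 counts, after scaling by library composition) in the 8 libraries without Fuz and at 4.95 to 9.22 CPM in the other 8. Gpr161 stood at 2.12 to 5.44 CPM in the 8 libraries without Gpr161 and at 24.3 to 54.95 CPM in the other 8. Both targeted genes thus go with the labels, but Gpr161 was lower in Fuz KO 1 than in the other libraries that keep it. It was at 25.4 CPM in Head Fuz KO 1 and 52.5 CPM in Head Fuz KO 2, against 54.95 and 53.97 CPM in Head WT. In Tail it was at 24.3 and 42.7 CPM, against 46.8 and 51.5 CPM in Tail WT. The Fuz KO 1 and DKO 1 libraries of both parts stood apart in 11 hypoxia and glycolysis genes, whose summed level in the Head was 9885 and 7984 CPM there against 2521 and 2577 CPM in WT. In Head Gpr161 KO that sum was 5614 CPM in library 1 and 3624 CPM in library 2.

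The sarcomere is the contractile unit of striated muscle. Myosin thick filaments pull on actin thin filaments, the troponin complex on the thin filament senses calcium, titin spans from the Z-disc to the M-band, and calcium is released through the ryanodine receptor and pumped back by SERCA2. At this stage the heart already beats, and its cardiomyocytes carry all of these parts. Several of them, among them cardiac actin, slow troponin I and titin, are also made by early skeletal muscle.

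The promoters of the members were examined first, since genes of muscle share known promoter elements. RefSeq promoter windows (build GRCm38.p6) were found for 30 of the 34 genes, and the 250 bases before each start site were searched on both strands. The CArG box, the element bound by serum response factor, was present in 7 of the 30 members (23.3%) and in 1.62% of all 27025 genes with a window. The 7 stretches are shown 5′ to 3′ on the strand of the gene, 60 bases each, with the CArG box in capitals.
Myl3, chr9:110763568-110763627, plus strand: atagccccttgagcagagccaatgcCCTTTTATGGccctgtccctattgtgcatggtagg
Myl7, chr11:5898809-5898868, minus strand: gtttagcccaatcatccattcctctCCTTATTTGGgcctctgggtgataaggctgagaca
Actc1, chr2:114052888-114052947, minus strand: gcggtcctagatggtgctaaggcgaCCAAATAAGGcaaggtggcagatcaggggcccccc
Acta1, chr8:123894814-123894873, minus strand: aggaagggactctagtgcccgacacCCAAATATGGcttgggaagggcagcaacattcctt
Ldb3, chr14:34588682-34588741, minus strand: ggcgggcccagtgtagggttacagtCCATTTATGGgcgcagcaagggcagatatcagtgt
Myom1, chr17:71019433-71019492, plus strand: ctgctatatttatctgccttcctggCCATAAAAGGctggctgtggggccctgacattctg
Asb2, chr12:103356031-103356090, minus strand: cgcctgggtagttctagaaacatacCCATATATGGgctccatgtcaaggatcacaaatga

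The boxes lay between 26 (Ldb3) and 99 (Myom1) bases before the start site. Other motifs were searched in the same windows. The MEF2 box was found in 2 of 30 members (6.67%) against 3.42% of genes, TATAAA in 6 (20%) against 14.3%, GATAA in 13 (43.3%) against 25.5%, and AAGTG, the core of the NK2-type element, in 14 (46.7%) against 44.3%. None of the CArG boxes overlapped one of these. These shares describe letters in a window and were not tested.

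In the Head Gpr161 KO libraries, 33 of the 34 members were above both Head WT libraries, in both replicates, and 0 were below both. Over all 21284 genes tested, 28.4% were above and 25.1% below, and since the members were picked on this contrast nothing is read from the count. The fitted log2 fold changes had a median of 5.86, beside 0.01 over all genes, and 5.95 over the 33 members with a count in either group. The 3 of these without a count in Head WT have lower bounds of log2 8.14 to 9.44, above that median. Setting them at their bound could therefore not change it. What the choice of members did not fix is that library 1 was far above library 2 for nearly all of them. The 33 members other than Atp2a2 summed to 3295 CPM in Head Gpr161 KO 1 and 784 CPM in Head Gpr161 KO 2, against 50.1 and 55.1 CPM in Head WT. They summed to 89.0 and 40.1 CPM in Head Fuz KO, and to 86.2 and 43.5 CPM in Head DKO. All 34 genes together took 0.383% of the counts in Head Gpr161 KO 1 and 0.123% in library 2. In tissue libraries of this kind, more cells of a type and more RNA per cell cannot be told apart.

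**Figure D1:**
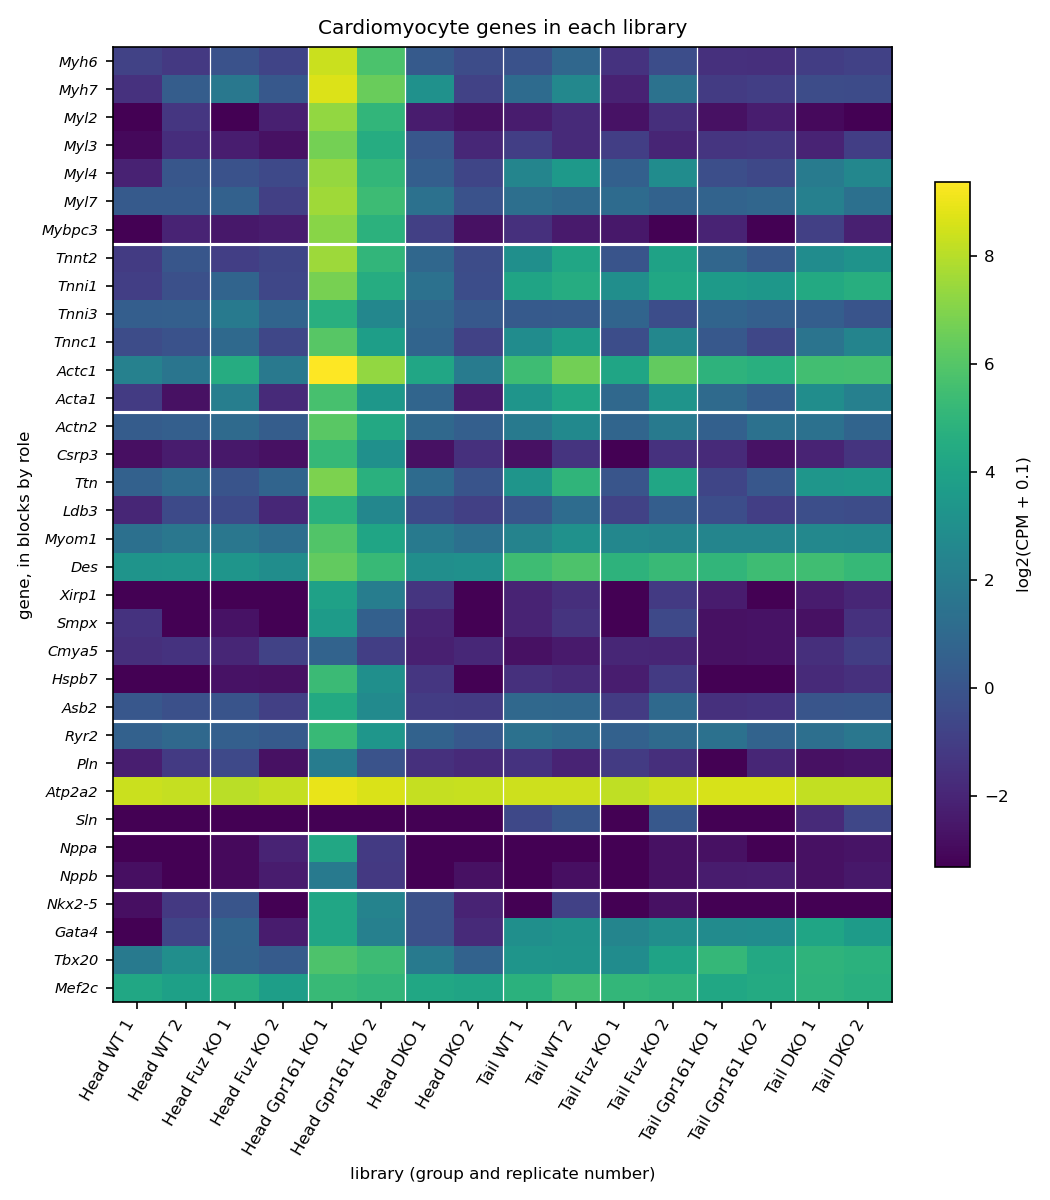
Level of each of the 34 cardiomyocyte genes (rows, in blocks by role) in each of the 16 libraries (columns), as log2 of CPM plus 0.1. Both Head Gpr161 KO columns stand out over nearly all rows, the first more than the second, and Atp2a2 is high in all 16 columns.

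Thick filament genes had a median fitted log2 fold change of 8.89. Myh6, the alpha myosin heavy chain, was at 326 and 55.9 CPM in Head Gpr161 KO against 0.471 and 0.329 CPM in Head WT. The means were 191 ± 191 against 0.400 ± 0.101 CPM (SD, n = 2), with a fitted log2 fold change of 8.89 ± 0.95 SE. Myh7, the beta heavy chain, was at 425 and 88.7 CPM against 0.247 and 1.22 CPM (log2 8.46 ± 1.79 SE). Both heavy chain genes lie side by side and are close in sequence, so reads may be split between them. Myl2, the ventricular regulatory light chain, was at 159 and 33.1 CPM against 0 and 0.305 CPM. Its atrial counterpart Myl7 was at 187 and 41.3 CPM against 1.10 and 1.13 CPM. Myl2 and Myl7 thus both stood higher in library 1 than in library 2, but other markers of ventricle and atrium varied. Irx4, of ventricle, was at 9.19 and 2.75 CPM against 4.71 and 4.39 CPM in Head WT. Hey2, also of ventricle, was at 15.4 and 7.01 CPM against 7.69 and 6.20 CPM. Nr2f2, of atrium, was at 160 and 187 CPM against 134 and 147 CPM, and Sln had no count. Mybpc3, the cardiac myosin-binding protein C, was at 141 and 28.9 CPM against 0 and 0.141 CPM. Myl3, the essential light chain of ventricle, and Myl4, that of atrium and of embryonic muscle, reached 107 and 167 CPM in library 1. They stood at 23.6 and 33.8 CPM in library 2, and at 0.939 CPM or less in Head WT.

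Thin filament genes followed the same order of libraries. Actc1, cardiac alpha-actin and a gene with a CArG box 38 bases before its start, was at 667 and 159 CPM against 4.73 and 2.96 CPM in Head WT (log2 6.74 ± 1.42 SE). It held the highest level per length of all members, 413 CPM per kilobase of exon in library 1, followed by Myl7 at 317. Acta1, skeletal alpha-actin, which the embryonic heart also makes, was at 52.2 and 10.45 CPM against 0.359 and 0.0469 CPM. Actin genes are close in sequence, and reads may be split among them. Tnnt2, the cardiac troponin T that ties the complex to tropomyosin, was at 184 and 33.1 CPM against 0.359 and 0.962 CPM. Tnnc1, the calcium-binding troponin of heart and slow muscle, was at 68.2 and 13.9 CPM against 0.673 and 0.821 CPM. Of the inhibitory troponins, the embryonic form Tnni1 was at 111 and 23.1 CPM and the adult cardiac form Tnni3 at 26.0 and 5.87 CPM, against at most 1.31 CPM for either in Head WT.

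The Z-disc, M-band and scaffold genes were lower in level. Ttn, titin (ENSMUSG00000051747), was at 116 and 27.0 CPM against 1.44 and 2.16 CPM (log2 5.31 ± 1.33 SE). Actn2, the alpha-actinin that crosslinks actin at the Z-disc, was at 69.5 and 19.9 CPM against 1.19 and 1.34 CPM. Csrp3, a Z-disc LIM protein of heart, was at 35.9 and 8.24 CPM against 0.0449 and 0.0939 CPM. Genes without any count in Head WT were also found here. Hspb7, a small heat shock protein of the cardiac thin filament, was at 39.9 and 7.94 CPM against 0. The mean of both libraries was at least 695-fold higher, with 3 counts over the WT group as the floor. Library 2 alone gives a lower bound than this mean. Xirp1, an actin-binding protein of cell junctions, was at 15.3 and 4.10 CPM against 0, at least 282-fold higher in the mean of both libraries. Ldb3, which binds alpha-actinin, was at 27.1 and 5.87 CPM against 0.157 and 0.634 CPM. Myom1, the M-band crosslinker of myosin, was at 60.2 and 17.7 CPM against 2.49 and 3.17 CPM. Des, the intermediate filament desmin of all muscle types, was at 79.9 and 37.7 CPM against 9.60 and 9.93 CPM. Its fold change was the smallest of the 11 genes in this block after Cmya5. Asb2, a ubiquitin ligase subunit of muscle, was at 21.0 and 6.77 CPM against 0.987 and 0.751 CPM. Smpx, a small muscle protein encoded on the X chromosome, was at 12.6 and 1.37 CPM against 0.269 and 0 CPM. Cmya5, myospryn, was nearly absent, with 1.53 and 0.419 CPM against 0.224 and 0.258 CPM.

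Calcium handling genes differed more among themselves. Ryr2, the cardiac ryanodine receptor through which calcium leaves the store, was at 37.0 and 9.96 CPM against 1.44 and 1.85 CPM (log2 3.83 ± 0.53 SE). Pln, phospholamban, the brake on the calcium pump, reached only 3.92 and 0.838 CPM against 0.112 and 0.352 CPM. Atp2a2, which encodes the pump SERCA2 and is used by many cell types, was at 493 and 405 CPM against 331 and 304 CPM (log2 0.50 ± 0.12 SE). Its range over the 14 libraries outside Head Gpr161 KO reached 392 CPM. Sln, sarcolipin, a pump regulator of atrium and skeletal muscle, had no count in any of the 8 Head libraries, although it is one of the chosen members. It was seen only in Tail, at up to 1.04 CPM.

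The natriuretic peptides were the members on which the Head Gpr161 KO libraries disagreed most. Nppa, a hormone gene of atrial and embryonic working myocardium, was at 19.5 CPM in library 1 and 0.349 CPM in library 2, and had no count in Head WT. Nppb, its neighbour, was at 3.50 and 0.326 CPM against 0.0449 and 0 CPM. The group means of 9.90 ± 13.5 and 1.91 ± 2.24 CPM (SD, n = 2) thus rest on library 1.

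The transcription factors differed in how far both libraries lay apart. Nkx2-5, the homeobox factor of heart progenitors and cardiomyocytes, was at 18.2 and 5.03 CPM against 0.0449 and 0.329 CPM. Gata4, a zinc finger factor of heart and of other mesoderm and endoderm, was at 17.9 and 4.61 CPM against 0 and 0.516 CPM. Tbx20, a T-box factor of heart that is also used in hindbrain motor neurons, was at 57.2 and 42.4 CPM against 3.54 and 7.60 CPM (49.8 ± 10.48 against 5.57 ± 2.87 CPM, SD, n = 2). Mef2c, a factor of muscle, endothelium and neural crest, was at 38.1 and 33.2 CPM against 18.8 and 14.9 CPM. For Tbx20 and Mef2c the spread between both Gpr161 KO libraries was small beside their distance from WT, whereas for Nkx2-5 and Gata4 library 1 was several times library 2.

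The ratio between both libraries was therefore set out gene by gene. After the mean Head WT level was subtracted, the excess in library 1 divided by that in library 2 had a median of 4.82 over the 33 members with counts. It lay between 4 and 6 for 19 of them, below 4 for 9 and above 6 for 5. The thick filament genes kept within 4.54 (Myl3) to 5.88 (Myh6), and the thin filament genes within 4.28 (Actc1) to 5.65 (Tnnt2). These 13 contractile genes, whose levels differ widely, thus lay within 4.28 to 5.88. Lower ratios were found for Mef2c (1.30), Tbx20 (1.40), Atp2a2 (2.00) and Des (2.51), which are also the 4 members with the highest mean level in Head WT. Higher ratios were found for Nppa (55.7), Nppb (11.5), Smpx (10.1), Cmya5 (7.24) and Pln (6.08). The counting interval (95%, exact) of the plain ratio of levels was 33.6 to 100.1 for Nppa and 7.02 to 12.3 for Smpx, and it was 4.63 to 4.97 for Myh7. It was 5.59 to 6.10 for Myh6 and 4.09 to 4.32 for Actc1, so the contractile genes differed by more than counting error. For Cmya5 the plain ratio was 3.65 (2.13 to 6.55) and for Pln 4.67 (3.24 to 6.91), beside a median of 4.52 over the members. The higher excess ratios of these 2 genes rest on 18 and 36 counts in library 2, so they are not set apart from the other members. Intervals cover counting error only and take each count as independent. All counts of Sln and Xirp1 over the libraries were even numbers, so reads may have been counted in pairs. The intervals would then be too narrow.

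**Figure D2:**
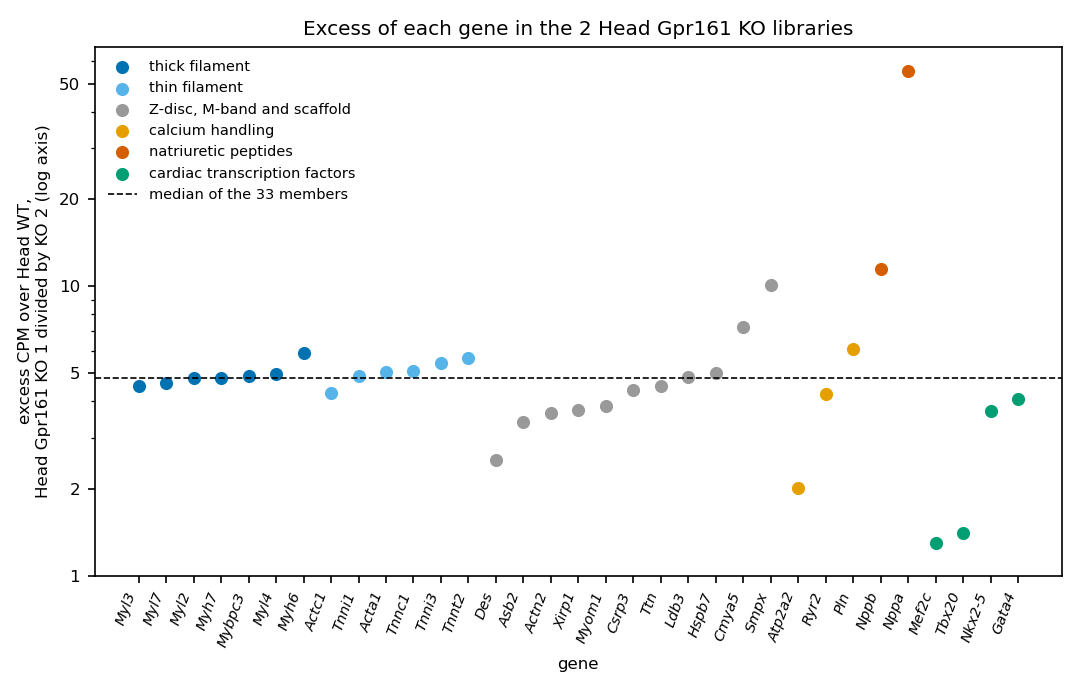
Excess over the Head WT mean in Head Gpr161 KO library 1 divided by that in library 2, for 33 members in order of role (log axis), with the median of 4.82 as a dashed line. Thick and thin filament genes lie near the line, Mef2c and Tbx20 lie lowest, and Nppa lies highest at 55.7.

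Some other genes of heart muscle, on lists that held no member, were higher in Head Gpr161 KO too. All gene lists here and below were set with earlier results of these data known. Calls on them in Head Gpr161 KO are thus not independent of how the members were chosen, and they are given as a description. Of the other cardiac muscle structure genes, 12 of 19 tested were called higher than in Head WT by edgeR's quasi-likelihood test with Benjamini-Hochberg adjustment, and none was lower, where 1.51% of all genes were called higher and 0.507% lower. Their median log2 fold change was 2.85. Popdc2, a membrane protein of heart and skeletal muscle, was at 21.7 and 5.68 CPM against 0.561 and 0.634 CPM (log2 4.51 ± 0.53 SE, adjusted p = 0.00137). Tpm1, the tropomyosin of the thin filament, was at 693 and 634 CPM against 285 and 254 CPM (log2 1.30 ± 0.19 SE, adjusted p = 0.00432). Pdlim5 and Fhl2, both LIM proteins, completed the leading 4 with adjusted p = 0.00251 and 0.0031. Of the other excitation and calcium genes, 3 of 13 were called higher and 10 did not pass. Jph2, which holds the plasma membrane against the calcium store, was at 36.9 and 22.9 CPM against 6.10 and 5.33 CPM (adjusted p = 0.00139), Slc8a1, the sodium-calcium exchanger, at 142 and 41.2 CPM against 11.6 and 10.2 CPM (adjusted p = 0.0103), and Trdn at 6.95 and 1.09 CPM against 0 and 0.0704 CPM (adjusted p = 0.0294). Gja1, a gap junction protein of heart and many other tissues, was below WT in both libraries, at 228 and 194 CPM against 271 and 256 CPM (adjusted p = 0.233). Of the other cardiac transcription factors, 2 of 11 were called higher and 9 did not pass. These were Myocd, the coactivator of serum response factor, at 15.4 and 8.52 CPM against 1.59 and 1.08 CPM (adjusted p = 0.00251), and Gata5 at 11.9 and 3.40 CPM against 0.224 and 0.329 CPM (adjusted p = 0.0418). Shox2, a factor of the sinus node and of other embryonic tissues, was below WT in both libraries, at 3.005 and 4.399 CPM against 14.4 and 16.2 CPM (adjusted p = 0.302). Gja1 and Shox2 were singled out after their values were seen, as the genes of both lists that were lower at an unadjusted p under 0.05. Leaving out 1 library lowered the share of all genes called higher from 1.51% to 0.374% without Head Gpr161 KO 1, 0.656% without Head Gpr161 KO 2, 0.0824% without Head WT 1 and 0.106% without Head WT 2. In the same order, the 12 calls of structure genes became 4, 12, 2 and 1. The excitation genes went from 3 to 1 without either Head WT library, and the factors from 2 to 3 without Head Gpr161 KO 2, to 1 without Head Gpr161 KO 1 or Head WT 1 and to 0 without Head WT 2.

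Markers of neighbouring tissues were measured beside these. Over all genes the share called was again 1.51% higher and 0.507% lower. Smooth muscle genes were called higher in 4 of 7, with Acta2 at 354 and 226 CPM against 23.3 and 11.3 CPM and Cnn1 at 24.1 and 15.0 CPM against 1.32 and 0.399 CPM. Synpo2 and Smtn were the others called, with adjusted p = 0.00964 and 0.027, and the embryonic heart also makes Acta2 and Cnn1. Second heart field and outflow tract genes were called higher in 2 of 7, and 5 did not pass. Tbx1, a factor of pharyngeal mesoderm, was at 74.8 and 92.4 CPM against 19.3 and 13.3 CPM (adjusted p = 0.0482), and Sema3c at 37.5 and 51.4 CPM against 26.3 and 22.9 CPM. In both genes library 2 was the higher, opposite to the contractile genes. Fgf8, a growth factor of the same list, was below WT in both libraries, at 7.02 and 4.75 CPM against 13.5 and 16.3 CPM (log2 -1.34 ± 0.32 SE, edgeR adjusted p = 0.0504, DESeq2 adjusted p = 0.00141). The summed level of that list was 227 and 260 CPM against 129 and 129 CPM. The endothelium list summed to 625 and 526 CPM against 359 and 334 CPM, with 4 of 10 genes called higher (Plvap, Cdh5, Sox18 and Erg), and the median ratio of its levels in library 1 to library 2 was 1.15.

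The summed levels of lists of the inner and outer linings of the heart differed less from WT than that of the muscle genes. The 6 endocardium genes summed to 92.4 and 77.2 CPM against 46.6 and 38.0 CPM. Of these, 2 of 6 were called higher (Npr3 and Gata5), where 1.51% of all genes were. Gata5 is also counted among the factors above. Npr3 held the largest part of that sum, at 55.6 and 54.3 CPM against 33.8 and 27.1 CPM. The 7 epicardium genes summed to 54.8 and 60.5 CPM against 24.1 and 20.7 CPM, and 1 of 7 was called higher, Tcf21, at 4.09 and 2.61 CPM against 0.404 and 0.986 CPM. Wt1, an epicardial factor, was at 3.99 CPM in library 1 and 0.512 CPM in library 2 against 0.112 and 0.821 CPM. Tbx18 held the largest part of the epicardium sum, at 33.5 and 49.1 CPM against 19.4 and 15.0 CPM. Of the same list, Upk3b was at 3.10 and 0.838 CPM against 0.135 and 0.282 CPM. Upk1b was at 1.13 and 1.35 CPM against 1.44 and 0.727 CPM. Tbx18, Upk3b, Upk1b, Bmp10 and Tbx5 were singled out after their values were seen. Bmp10, a ligand of trabecular myocardium, was at 9.75 and 1.02 CPM against 0 in Head WT (adjusted p = 0.0953). Tbx5, a factor of atria and left ventricle, was at 7.44 and 0.326 CPM against 0.673 and 0.493 CPM (adjusted p = 0.31). For Tbx5, library 2 was below both WT libraries. The counts called on these neighbouring lists also fell when a library was left out, as did the share over all genes given above. Without Head WT 1 (0.0824% of all genes) or Head WT 2 (0.106%) there were 0 calls on the smooth muscle, endocardium, endothelium, epicardium and outflow tract lists. Without Head Gpr161 KO 1 (0.374%) there was 1 call, in smooth muscle, and without Head Gpr161 KO 2 (0.656%) there were 1 in smooth muscle, 1 in endocardium, 2 in endothelium, 1 in epicardium and 0 in the outflow tract list.

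Genes that would mark skeletal muscle or trunk tissue were measured as well. EdgeR's calls on them stand beside the same share of all genes, 1.51% higher and 0.507% lower. The 16 skeletal muscle genes summed to 22.9 and 23.3 CPM in Head Gpr161 KO, against 16.0 and 18.6 CPM in Head WT. Myog, the factor of differentiating skeletal muscle, was at 0.246 and 0.0931 CPM against 0.0897 and 0.446 CPM. One of 15 tested was called higher, Tnni2, at 2.17 and 1.54 CPM against 0.404 and 0.375 CPM (adjusted p = 0.0397), and it was not called when any of the 4 libraries was left out. With DESeq2, Tnni2 and Myf5, an early factor of skeletal muscle, were called higher. The share of all genes that DESeq2 called in this comparison is not given here, so nothing is read from these 2 calls. Myf5 was at 4.36 and 4.56 CPM against 1.35 and 0.986 CPM, above WT in both libraries (log2 1.93 ± 0.66 SE, edgeR adjusted p = 0.203, DESeq2 adjusted p = 0.0409). The 12 trunk-level Hox genes summed to 0.911 and 1.00 CPM there and to at most 1.95 CPM in any Head library, against 504 to 836 CPM in Tail, and 0 of 12 were called. Hoxa7 had the widest fitted change of that list, with no count against 0.0897 and 0.188 CPM. Of the hepatoblast genes, 1 of 8 tested was called higher, Apob, a lipoprotein gene of liver and yolk sac, at 11.2 and 8.66 CPM against 1.88 and 1.27 CPM (adjusted p = 0.0238). It was not called when any of the 4 libraries was left out, and Alb and Afp stayed at 0.0704 CPM or less in these libraries. None of the 9 erythroid genes was called, and Hbb-bt had the widest change, at 4.48 and 3.21 CPM against 18.1 and 19.0 CPM. None of the 11 hypoxia and glycolysis genes was called either, with Adm widest at 9.48 and 9.59 CPM against 1.39 and 2.21 CPM. As background, the outflow tract and the heart lie close to the arches at which the Head was cut. The part that heart tissue carried over in dissection has in the levels of the members was not tested. The same holds for the hypoxia genes. Their sum was also higher in library 1 than in library 2, but Adm and Car9 (2.27 and 2.40 CPM) were not.

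**Figure D3:**
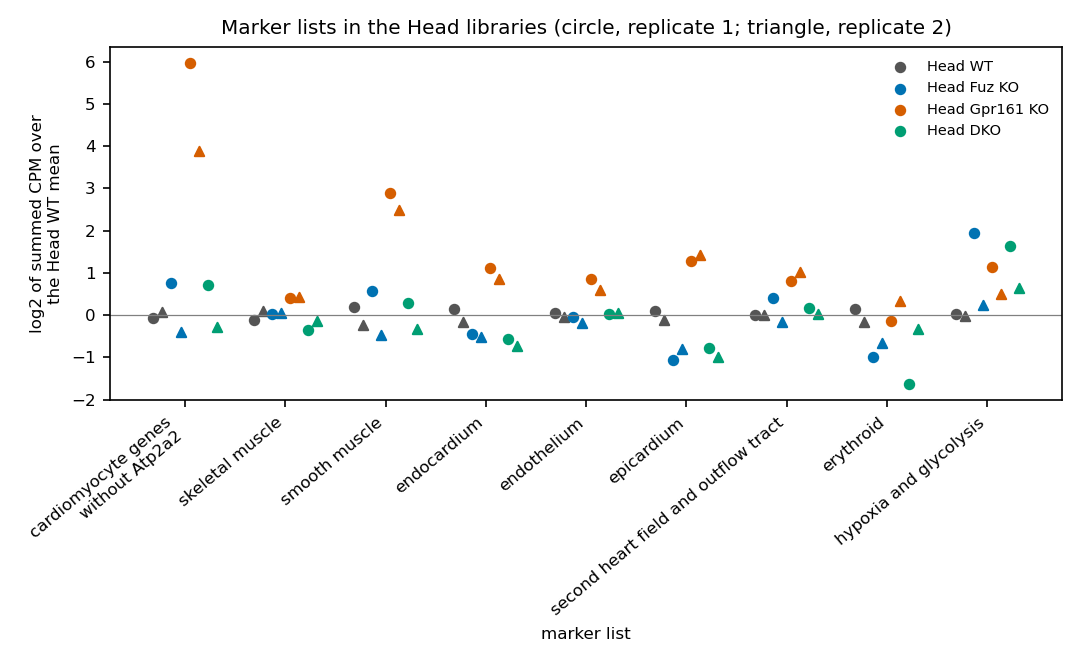
Summed CPM of each marker list in each Head library, as log2 of its ratio to the Head WT mean. The cardiomyocyte genes without Atp2a2 stand highest in both Head Gpr161 KO libraries and are far apart between them, whereas smooth muscle, endocardium, endothelium, epicardium and outflow tract lists stand above WT with both libraries close together.

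Outside Head Gpr161 KO the members differed widely in level. Of the 34, 12 stayed under 1 CPM in all 14 other libraries: Myl2, Myl3, Mybpc3, Csrp3, Xirp1, Smpx, Cmya5, Hspb7, Pln, Nppa, Nppb and Nkx2-5. At the other end, 15 reached 5 CPM in a Tail library, and 6 did so in a Head library of another genotype. The other 7 (Myh6, Myl7, Tnni3, Ldb3, Asb2, Ryr2 and Sln) had their highest levels there between 1.04 and 4.55 CPM. In 26 members both Head Gpr161 KO libraries were above all 14 others, as in 6.93% of all genes tested. The members were picked for their level in those libraries, so nothing is read from this count. The 8 exceptions were Tnni1, Acta1, Ttn, Des, Gata4 and Mef2c, which were at or above the lower Head Gpr161 KO library in some Tail library, and Cmya5 and Sln, which were near 0.

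Myl2, Nppa and Nppb pass the filter on low counts only through the Head Gpr161 KO libraries, so counts of members above or below both libraries of a control are given from here on for the other 31. In Head Fuz KO no member passed edgeR's test against Head WT in either direction (background 0.0094% higher and 0.0376% lower). At an unadjusted p under 0.05 there were 0 higher and 1 lower (background 4.95% and 3.22%), and DESeq2 called 0 higher and 1 lower (background 0.0912% and 0.219%). That gene was Tbx20, at 1.53 and 1.14 CPM against 3.54 and 7.60 CPM, both below WT (log2 -2.06 ± 0.53 SE, edgeR adjusted p = 0.60, DESeq2 adjusted p = 0.00629). The median log2 fold change of the members was 0.24. Both libraries were above both WT libraries for 3 of the 31 members, 9.68% of them, and below for 2, 6.45% of them, where all genes gave 18.6% and 17.9%. Head Fuz KO 1 alone was raised in several of them. Actc1 was at 23.4 CPM there and 3.38 CPM in Head Fuz KO 2, and Acta1 at 4.15 and 0.190 CPM. Gata4 was at 1.64 and 0.0951 CPM, and Nkx2-5 at 0.935 CPM and 0.

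In Head DKO, too, no member passed edgeR's test against Head WT (background 0.0047% higher and 0.0282% lower). At an unadjusted p under 0.05 there were 0 higher and 1 lower, again Tbx20 (background 1.97% and 2.36%), and DESeq2 called 0 in both directions (background 0.061% and 0.224%). The median log2 fold change was 0.36. Of the 31, 1 member, Myh6, was above WT in both libraries (background 21.3%), at 1.13 and 0.686 CPM, and 3 were below (background 19.1%). Library 1 was once more the higher: Actc1 stood at 18.5 and 3.76 CPM and Myh7 at 8.50 and 0.473 CPM. These are the Head libraries with the highest hypoxia sums, and the part of that in the levels of Actc1 and Myh7 was not tested. All Head comparisons share the Head WT libraries. Between Head DKO and Head Fuz KO, edgeR called 0 higher and 0 lower (background 0.0047% and 0.0235%), with 1 higher, Myl3, and 0 lower at an unadjusted p under 0.05 (background 1.16% and 1.74%). DESeq2 also called 0 (background 0.0129% and 0.0291%). The median log2 difference was 0.13, and 2 of the 31 members were above both Head Fuz KO libraries (background 10.3%) and 1 below (background 11.3%). The high levels of contractile genes in Head Gpr161 KO were thus not seen in the Head DKO libraries, which lack Gpr161 too: Myh6 was at 326 and 55.9 CPM in the former and at 1.13 and 0.686 CPM in the latter.

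In Tail WT, Atp2a2 was the highest member at 342 and 346 CPM, and Mef2c was at 28.1 and 44.0 CPM. Apart from these, the highest members were those that skeletal muscle shares with heart. In Tail WT, Actc1 was at 43.0 and 102 CPM, Des at 43.6 and 57.8 CPM, Ttn at 9.69 and 31.4 CPM, Tnni1 at 16.9 and 22.9 CPM and Tnnt2 at 7.92 and 18.2 CPM. The genes most particular to heart were near 0 there, with Myl2 at 0.0957 and 0.183 CPM, Nkx2-5 at 0 and 0.457 CPM, and Nppa without a count in either. Gata4 (7.83 and 9.10 CPM) and Tbx20 (9.62 and 9.33 CPM) were above their Head WT levels. The 16 skeletal muscle genes summed to 101 CPM in Tail WT 1 and 219 CPM in Tail WT 2, and Ttn, Tnnt2 and Actc1 were likewise higher in library 2.

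In Tail Gpr161 KO, 19 of the 31 members were below both Tail WT libraries, 61.3% of them where 22% of all genes did so, and 3 were above both (background 22.6%). The median log2 fold change was -1.24 over all 34 members and -1.37 over the 31, beside 0.00 over all genes. No single member passed edgeR's test (background 0.0799% higher and 0.226% lower), with 1 higher and 10 lower at an unadjusted p under 0.05 (background 3.01% and 3.97%). DESeq2 called 1 higher and 4 lower (background 0.474% and 1.09%). Ttn was at 0.521 and 0.981 CPM against 9.69 and 31.4 CPM, with no overlap (log2 -4.77 ± 1.35 SE, edgeR adjusted p = 0.334, DESeq2 adjusted p = 0.00387). Asb2 was at 0.237 and 0.258 CPM against 1.87 and 1.78 CPM (log2 -2.87 ± 0.73 SE, edgeR adjusted p = 0.191, DESeq2 adjusted p = 0.00633). Both other genes called lower by DESeq2 were also far from WT. Myl4 was at 0.735 and 0.568 CPM against 5.34 and 11.7 CPM (DESeq2 adjusted p = 0.0284), and Tnnc1 at 1.02 and 0.542 CPM against 7.25 and 13.5 CPM (DESeq2 adjusted p = 0.0347). Tnnt2 was at 1.75 and 1.06 CPM against 7.92 and 18.2 CPM, and Acta1 at 1.99 and 1.29 CPM against 9.84 and 18.1 CPM. Actc1 differed less, at 29.8 and 25.7 CPM against 43.0 and 102 CPM.

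Skeletal muscle genes were low in the same libraries. Their sum was 18.2 and 18.1 CPM in Tail Gpr161 KO against 101 and 219 CPM in Tail WT, and their median log2 fold change was -3.37. None of 15 passed edgeR's test (background 0.0799% higher and 0.226% lower). At an unadjusted p under 0.05 there were 13 lower and 0 higher (background 3.97% and 3.01%). DESeq2 called 8 lower and 0 higher (background 1.09% and 0.474%). Myog was at 0.806 and 0.878 CPM against 18.4 and 34.5 CPM, and Myh3, the embryonic skeletal myosin, at 0.190 and 0.413 CPM against 26.7 and 84.9 CPM. Myh8, the perinatal skeletal myosin, had the widest fitted change and no count in either Tail Gpr161 KO library, against 0.574 and 1.28 CPM. The part of skeletal muscle in the levels of the members was not tested. Not all members were low with them. Tnni3, the adult cardiac troponin I, was at 1.61 and 1.32 CPM against 1.10 and 1.14 CPM, and Atp2a2 at 390 and 392 CPM against 342 and 346 CPM. Gata4 differed little, at 7.01 and 7.05 CPM against 7.83 and 9.10 CPM.

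Tbx20 stood on the other side of WT. It was at 35.5 and 20.1 CPM in Tail Gpr161 KO against 9.62 and 9.33 CPM in Tail WT, above WT in both libraries (27.8 ± 10.9 against 9.48 ± 0.205 CPM, SD, n = 2). The log2 fold change was 1.55 ± 0.48 SE, with an edgeR adjusted p of 0.376 and a DESeq2 adjusted p of 0.0431. In Tail DKO it was at 30.3 and 27.6 CPM, with a log2 fold change of 1.61 ± 0.48 SE, an edgeR adjusted p of 0.463 and a DESeq2 adjusted p of 0.0517. In Tail Fuz KO it was at 7.22 and 16.2 CPM, on both sides of WT. Tbx20 was thus above both Tail WT libraries in Tail Gpr161 KO and Tail DKO. In Head DKO, which also lacks Gpr161, it was at 3.65 and 1.47 CPM against 3.54 and 7.60 CPM, with 1 library just above the lower WT library and 1 below both, and in Head Fuz KO it was below both WT libraries. Both Tail comparisons use the same WT libraries.

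**Figure D4:**
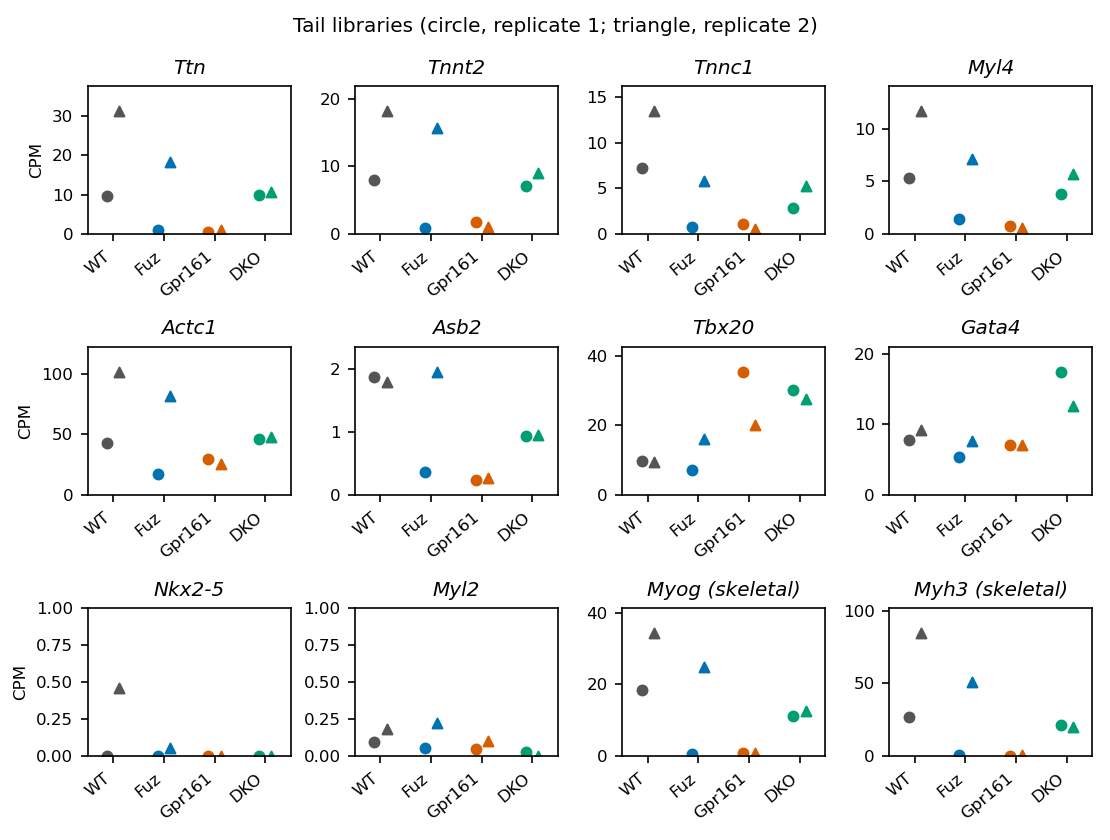
CPM in the 8 Tail libraries for 10 members and for the skeletal muscle genes Myog and Myh3, with colours by genotype, circles for replicate 1 and triangles for replicate 2. Ttn, Tnnt2, Tnnc1 and Myl4 are low where Myog is low, in Tail Fuz KO 1 and both Tail Gpr161 KO libraries, whereas Tbx20 is high in Tail Gpr161 KO and Tail DKO, and Nkx2-5 and Myl2 stay under 0.5 CPM.

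Tail Fuz KO was split between its libraries. Ttn was at 0.928 CPM in library 1 and 18.4 CPM in library 2, Tnnt2 at 0.877 and 15.6 CPM, and Actc1 at 17.5 and 81.4 CPM. Myog was split in the same way, at 0.413 and 24.8 CPM, and so was the skeletal muscle sum, at 17.2 and 141 CPM. Library 1 is also the one with the raised hypoxia genes, with a sum of 9168 CPM against 3085 CPM in library 2, and the part of either in these levels was not tested. EdgeR called 0 members in both directions against Tail WT (background 0.0094% higher and 0% lower), with 0 at an unadjusted p under 0.05 (background 2.36% and 2.85%). DESeq2 called 0 as well (background 0.0458% and 0.0763%). The median log2 fold change was -0.41, with 8 of the 31 members below both WT libraries (background 18%) and 1 above (background 16.6%).

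Tail DKO lay between. Ttn was at 10.0 and 10.7 CPM, Tnnt2 at 7.04 and 9.07 CPM and Actc1 at 46.2 and 47.3 CPM, each near Tail WT 1 and below Tail WT 2. The skeletal muscle sum was 70.9 and 82.9 CPM. Gata4 was at 17.4 and 12.6 CPM, above both WT libraries at 7.83 and 9.10 CPM. EdgeR called 0 members against Tail WT (background 0.0094% higher and 0.0329% lower), with 2 higher (Tbx20 and Cmya5) and 0 lower at an unadjusted p under 0.05 (background 2.63% and 4.56%), and DESeq2 called 0 (background 0.223% and 0.551%). The median log2 fold change was -0.40, with 10 of the 31 members below (background 20.8%) and 4 above (background 21.4%). Against Tail Fuz KO, edgeR called 0 members in Tail DKO (background 0% and 0.0329%), with 1 higher, Tbx20, and 0 lower at an unadjusted p under 0.05 (background 1.61% and 2.08%), and DESeq2 called 0 (background 0.0265% and 0.106%). The median log2 difference was -0.01, and 7 of the 31 members were above both Tail Fuz KO libraries (background 14.2%) and 2 below (background 13.7%).

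**Figure D5:**
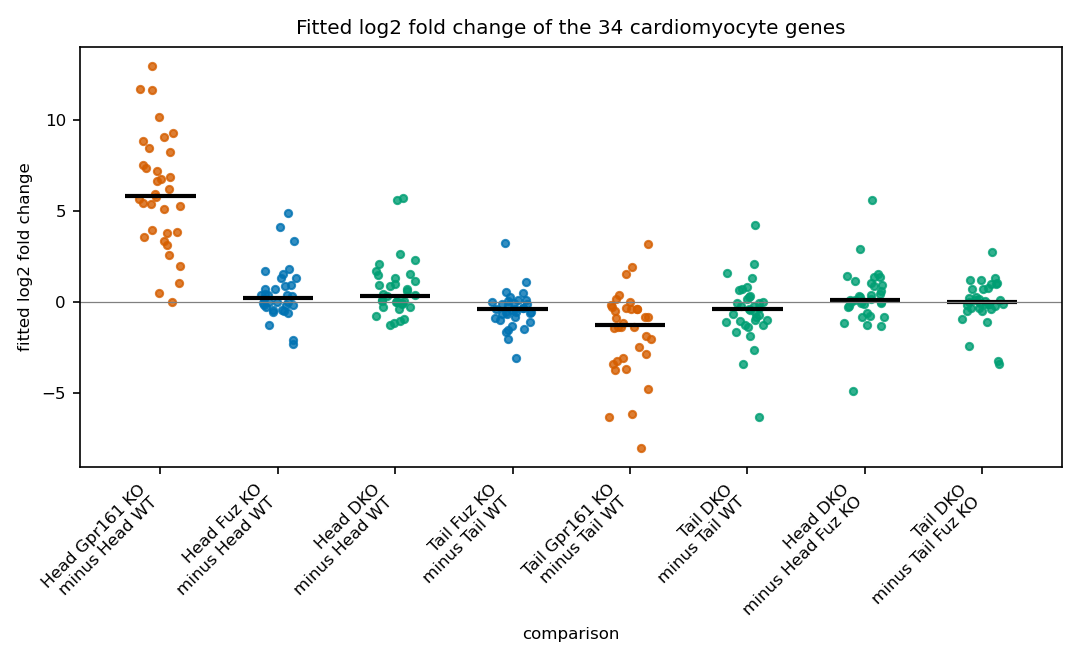
Fitted log2 fold change of each of the 34 members (points) in the 8 comparisons, with the median as a black bar. The medians are 5.86 in Head Gpr161 KO, the comparison the genes were chosen on, and -1.24 in Tail Gpr161 KO, and lie between -0.41 and 0.36 in the other 6. Values far from 0 in the latter belong to genes with few counts in one of the groups.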

How the data were processed

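Poly-A selected RNA was sequenced from 16 libraries, 8 groups of 2, per the labels' protocols. The authors deposited 1 table of raw read counts per gene for each library. Build GRCm39 and, among other tools, the aligner STAR 2.7.1a and the counters featureCounts 1.6.0 and HTSeq are listed, per the submitters' processing notes. Which counter made these tables, and with what strand setting, is not given in the sources used here, so overlapping and antisense genes may share reads. Names came from GENCODE vM21 by identifier (54723 of 54838 matched).

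The members and all gene lists were chosen with earlier results of these data known. Counts were scaled by TMM, and CPM are counts per 1000000 of the scaled library size. Genes passing filterByExpr (21284, all 34 members included) were tested with edgeR 4.0.16 (quasi-likelihood, robust, all 16 libraries, 8 group terms, 8 residual degrees of freedom) and called at a Benjamini-Hochberg adjusted p under 0.05. Without the Head Gpr161 KO libraries, 31 members pass that filter (not Myl2, Nppa and Nppb). DESeq2 1.42.0 was an alternative, and the others are given at the end. The effect of leaving out a library on calls of the other lists was added after the values were seen. SE is the log2 fold change divided by the root of the F statistic. Lower bounds set the mean of both Head Gpr161 KO libraries against 3 counts over the group at 0. They would be lower if reads were counted in pairs. Exon lengths are unions from GENCODE vM21. All members are named. Of each other list, in Head Gpr161 KO (and of the skeletal muscle list in Tail Gpr161 KO), up to 4 called genes by adjusted p are named, or else the gene of widest change, plus the markers given as singled out and a few defining markers. Of the 12 genes most like the members by Pearson r, all but a gene that is not reported here are also named. The fit was tested on simulated data.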

Additional observations from a re-analysis of the deposited data

Results flagged for a closer look

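In Gpr161 KO, 18 members were above both WT libraries in Head and below both in Tail: Acta1, Actc1, Actn2, Asb2, Gata4, Hspb7, Ldb3, Mef2c, Myh6, Myh7, Myl4, Myl7, Smpx, Tnnc1, Tnni1, Tnnt2, Ttn and Xirp1. Of all 21284 genes tested, 2.73% showed this order. The members were chosen for the Head side of it, so their count beside that share is a description, and the difference between both parts was not tested. Ttn shows its size, at 116 and 27.0 CPM in Head and 0.521 and 0.981 CPM in Tail of Gpr161 KO. In Fuz KO, 1 member (1.40% of all genes), Myh6, was above WT in both Head libraries and below WT in both Tail libraries (0.831 and 0.499 CPM in Head, 0.258 and 0.691 CPM in Tail). In DKO, 1 member (2.10% of all genes), again Myh6, showed that order, at 1.13 and 0.686 CPM in Head and 0.393 and 0.450 CPM in Tail. In DKO, 1 member (2.01% of all genes), Cmya5, was below WT in Head and above WT in Tail, at 0.118 and 0.166 CPM against 0.224 and 0.258 CPM in Head, and at 0.231 and 0.392 CPM against 0.0479 and 0.0915 CPM in Tail. None of these differences was tested.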

How the results depend on the processing

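The median log2 fold change of the members in Head Gpr161 KO was 5.86, and 4.17 to 6.52 when 1 library was left out. The lowest value, 4.17, came without Head Gpr161 KO 1. Under DESeq2, RLE scaling, a fit of each part of the embryo alone, a stricter filter (5 CPM in 2 libraries) and no filter it was 5.83 to 5.93. With the replicate number as a block it was 5.67, and no member was called in the 7 tested comparisons. Same-numbered libraries of compared groups did not deviate together throughout (r of -0.08 to 0.30). Head and Tail libraries of 1 genotype with the same number had r of 0.13 to 0.44, and the hypoxia sum was higher in library 1 in all 6 knockout groups, so the number may carry more than a name, but the labels do not tie it to an embryo, litter or day. Over the 31 members that pass the filter without Head Gpr161 KO, the median log2 fold change against WT was 0.16 in Head Fuz KO, 0.47 in Head DKO, -0.55 in Tail Fuz KO, -1.37 in Tail Gpr161 KO and -0.43 in Tail DKO. In the 7 tested comparisons, edgeR's count of 0 members called in each direction also held with RLE scaling, the stricter filter, each part fitted alone and with each library left out (0 to 0). DESeq2 called 1 lower in Head Fuz KO, and 1 higher and 4 lower in Tail Gpr161 KO. EdgeR without the filter called 4 higher and 1 lower in Head Fuz KO, 8 and 1 in Head DKO, 0 and 7 in Tail Fuz KO, 1 and 15 in Tail Gpr161 KO, 1 and 9 in Tail DKO, 4 and 0 in Head DKO against Head Fuz KO, and 2 and 1 in Tail DKO against Tail Fuz KO. In that fit no extra spread per gene was allowed (an infinite prior weight on the common trend, against a median of 4.95 degrees of freedom with the filter), and the moderated dispersion of Ttn was 0.605 against 10.8. With 2 libraries a group, a difference has to be large beside their spread to be called, and for genes under 1 CPM the counts limit what can be seen.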

Other observations

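Among the 12 genes outside the member list whose log2 CPM over the 16 libraries was most like the mean standardised level of the members, of 11793 protein-coding genes considered, were Rrad (Pearson r 0.950), Rbm24 (0.948), Pygm (0.945), Cox6a2 (0.942), Myo18b (0.937), Slc8a1 (0.926), Apobec2 (0.925), Jph2 (0.924), Trdn (0.919), Smyd1 (0.918) and Ankrd1 (0.915). The 16 points share groups, libraries and depth, and both Head Gpr161 KO libraries set much of each value, so r is a description. Rbm24, an RNA-binding protein that steers muscle splicing, was at 31.1 and 11.8 CPM in Head Gpr161 KO, 4.69 and 4.95 CPM in Head WT, 5.89 and 10.4 CPM in Tail WT and 4.57 and 3.98 CPM in Tail Gpr161 KO. Cox6a2, the muscle form of a cytochrome c oxidase subunit, was at 5.71 and 1.86 CPM in Head Gpr161 KO and had no count in Head WT. Smyd1, a methyltransferase of heart and skeletal muscle, was at 53.2 and 14.6 CPM against 0.987 and 1.17 CPM in Head, and at 4.91 and 3.36 CPM against 5.86 and 11.6 CPM in Tail.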
